A study of Mus musculus with 12 samples.

Results

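The 9 genes described here act in meiotic strand exchange and recombination repair, and they were followed through prophase I of mouse spermatocytes by the initiation sites detected in nascent transcription. The genes were Dmc1, Psmc3ip, Mnd1, Meiob, Spata22, Brca2, Palb2, Hsf2bp and Rad51ap2, 9 of the 21951 protein-coding genes of the GENCODE M21 annotation. The peaks described are all those whose nearest edge lay under 1000 bp from any annotated transcription start site (TSS) of these genes, here called promoter peaks. By this rule the 9 genes held 22 of 71107 peaks in leptonema/zygonema, 22 of 68352 in pachynema and 12 of the 38603 called in diplonema.

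The cells were wild-type (WT) spermatocytes of adult mice isolated by STAPUT, a sedimentation method that enriches a substage without purifying it. The paper names spermatogenic cells of earlier or later stages as potential contamination. No treatment or other allele distinguished the groups, which were leptonema/zygonema, pachynema and diplonema with 4 libraries each, 12 in all. Nascent RNA was measured by leChRO-seq, a chromatin run-on assay in which engaged polymerases are allowed to add biotin-tagged nucleotides, so that the reads mark where polymerase was at work. The data analysed here are the 3 lists of peaks that dREG, a machine-learning caller of transcription initiation from run-on reads, found on the merged libraries of each substage.

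During prophase I, programmed double-strand breaks are resected to single-stranded DNA, which recombinases such as DMC1 coat to search the homologous chromosome for a matching sequence. BRCA2 and its partners load the recombinases, the HOP2-MND1 complex (HOP2 is the product of Psmc3ip) stimulates the strand exchange, and MEIOB and SPATA22 bind the single-stranded DNA together. These steps begin in leptonema and zygonema and are largely finished by the end of pachynema, and mice that lack Dmc1, Psmc3ip, Mnd1, Meiob, Spata22 or Hsf2bp have spermatocytes that arrest or die in prophase I.

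Each peak carries a dREG score, which has no unit and no fixed range, and which was not scaled between substages. The median score over all peaks was 0.586 in leptonema/zygonema, 0.572 in pachynema, then 0.532 in diplonema. Each gene was therefore placed by the percentile of its highest-scoring promoter peak among the highest-scoring promoter peaks of all protein-coding genes called in the same list, where 50 is the middle gene. Libraries were merged before calling, so no value has a replicate spread, no test between substages was possible, and differences between lists are descriptions. The lists carry no read counts and the depth of the merged libraries was not compared here, and the absence of a peak does not show the absence of transcription.

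The labelled cells were checked against marker genes. All 10 meiotic prophase I markers, among them Sycp1, Sycp3 and Hormad1, had a promoter peak in each list. So had all 8 markers of pachytene and later cells, among them Mybl1 and Piwil1. The median percentiles in leptonema/zygonema, pachynema and diplonema were 79.8, 79.2 and 82.6 for the prophase I markers. For the pachytene and later markers they were 69.7, 73.6 and 92.4. From leptonema/zygonema to diplonema single markers went both ways. Rec8 stood at 97.3 and 1.28 and Mybl1 at 62.2 and 38.2, whereas Sycp3 stood at 47.7 and 96.7 and Piwil1 at 26.9 and 98.3. Of 8 spermatid markers 7 were called in each list, at a median percentile of 36.7 in leptonema/zygonema, 42.4 in pachynema, then 40.9 in diplonema. Prm1 and Prm2 had the same score in each list, so they may not be separate observations. Beside all marker counts, 60.1%, 60.5% and 51.6% of protein-coding genes were called in leptonema/zygonema, pachynema and diplonema. Of 8 spermatogonial markers 6, 6 and 3 were called in leptonema/zygonema, pachynema and diplonema, and the called ones had median percentiles of 42.5, 33.8 and 4.89. Kit, the receptor of differentiating spermatogonia, stood at percentiles 48.7, 46.9 and 4.89 in these lists, and Dmrt1, a transcription factor of spermatogonia, at 53.3, 54.2 and 3.93. Gfra1 and Nanos3, markers of undifferentiated spermatogonia, had no promoter peak in any list. Sohlh1, Sall4 and Ccnd2 were called in the first 2 lists and not in diplonema, while Zbtb16 stood at 30.4, 33.6 and 33.7. So 5 of the 6 called spermatogonial markers were lower in diplonema than in leptonema/zygonema or not called there. The same held for Dmc1, Psmc3ip, Mnd1, Brca2 and Palb2 of the 9 genes. Of all protein-coding genes called in leptonema/zygonema, 17.3% were not called in diplonema. Over the 10918 called in both lists the median difference was -3.40 points, so most genes were lower or not called. Of 8 Sertoli cell markers 3, 4 and 4 were called, at median percentiles of 19.3, 19.6 and 19.7. Leydig cell markers had 0, 2 and 1 of 7 called, and the 7 markers of other somatic cells (Acta2, Myh11, Csf1r, Adgre1, Pecam1, Cdh5 and Ptprc) had none in any list. The part of these other cells in the values below was not tested.

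For 5 genes whose promoter peaks lay clear of any other gene at the main start, the 150 bases before the RefSeq start are shown (RefSeq, GRCm38.p6, 5′ to 3′ on the strand of the gene). Dmc1, Psmc3ip and Mnd1 are shown because their rank was lower, or their call lost, in diplonema against leptonema/zygonema, Rad51ap2 because its rank was higher in each later list, and Brca2 because its rank stayed high. Capitals mark matches on either strand to the letters searched, which are GGGCGG (SP) in Dmc1 and Mnd1, CCAAT (NFY) in Psmc3ip, GGGCGG and GCGGGAA (E2F) in Rad51ap2, and TGACGTNA (CREB) in Brca2. The stretches lie at chr15:79605110-79605259 (minus strand) for Dmc1, chr11:101095436-101095585 (minus) for Psmc3ip, chr3:84155787-84155936 (minus) for Mnd1, chr12:11455905-11456054 (plus) for Rad51ap2 and chr5:150522471-150522620 (plus) for Brca2.
Dmc1: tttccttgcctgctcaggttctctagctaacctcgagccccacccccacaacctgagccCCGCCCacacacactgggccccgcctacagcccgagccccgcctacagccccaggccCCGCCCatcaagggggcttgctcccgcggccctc
Psmc3ip: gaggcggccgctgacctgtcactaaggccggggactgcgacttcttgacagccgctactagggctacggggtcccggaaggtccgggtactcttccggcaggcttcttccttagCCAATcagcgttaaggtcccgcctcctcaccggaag
Mnd1: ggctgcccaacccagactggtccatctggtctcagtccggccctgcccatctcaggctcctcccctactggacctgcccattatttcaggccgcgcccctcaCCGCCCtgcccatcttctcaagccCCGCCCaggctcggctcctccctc
Rad51ap2: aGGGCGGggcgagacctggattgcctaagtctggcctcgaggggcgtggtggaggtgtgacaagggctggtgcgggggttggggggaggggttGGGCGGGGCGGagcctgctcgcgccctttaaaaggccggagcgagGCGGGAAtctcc
Brca2: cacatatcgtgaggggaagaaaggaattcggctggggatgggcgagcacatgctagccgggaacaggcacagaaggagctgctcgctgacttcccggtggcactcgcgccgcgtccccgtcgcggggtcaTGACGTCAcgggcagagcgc

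All 9 genes had a promoter peak in leptonema/zygonema and in pachynema, and 8 of 9 had one in diplonema, where Psmc3ip had none. Among all protein-coding genes, 60.1% were called in leptonema/zygonema, 60.5% in pachynema, then 51.6% in diplonema. Called in all 3 lists were 8 of the 9 genes and 49.4% of protein-coding genes. With peaks near a TSS of another gene left out, 7, 7 and 5 of the 9 genes were called. Beside these stood 43.8%, 44.1% and 35.3% of all protein-coding genes. The main TSS, that of the longest protein-coding transcript, lay inside a peak in 9, 9 and 8 of the 9 genes and in 50.4%, 50.8% and 42.5% of all protein-coding genes. The median percentile of the called genes among the 9 was 82.3 in leptonema/zygonema, 85.8 in pachynema, then 85.9 in diplonema. These medians hide unlike courses. Brca2, Meiob, Spata22 and Hsf2bp were at percentile 82.3 or above in each list. In diplonema, by contrast, Dmc1 and Mnd1 stood at 18.3 and 16.7 and Psmc3ip had no peak. The highest peaks of Spata22, Palb2 and Hsf2bp also lie at starts of other genes, and the medians above include them. With peaks near a TSS of another gene left out, Spata22 and Palb2 were not called in any list. Hsf2bp then stood at 13.1 in leptonema/zygonema and 0.506 in pachynema and was not called in diplonema.

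**Figure D1:**
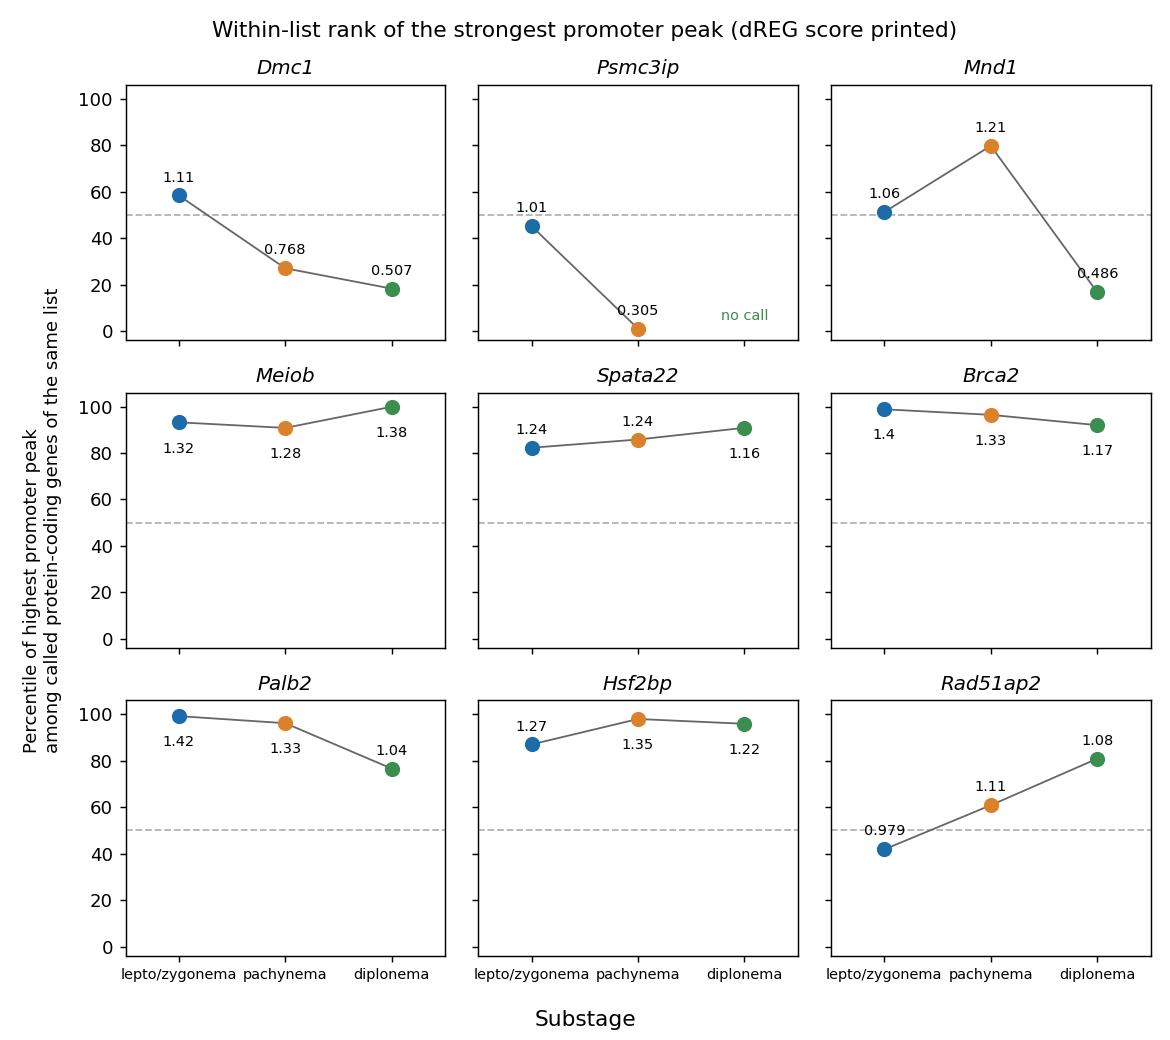
Percentile of the highest-scoring promoter peak of each gene (vertical axis, percent of called protein-coding genes below it in the same list) in the 3 substages (horizontal axis). Each point is 1 pooled list with its dREG score printed beside it, and the dashed line is the middle gene. Dmc1 runs from percentile 58.4 to 18.3, Psmc3ip has no call in diplonema, and Meiob ends at 99.9.

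Dmc1, the meiosis-specific recombinase, is encoded on the minus strand of chromosome 15 (79561497 to 79605109, mm10). Its highest promoter peak scored 1.106 in leptonema/zygonema, 0.768 in pachynema, then 0.507 in diplonema, at percentiles 58.4, 27.1 and 18.3. Pachynema minus leptonema/zygonema was -31.3 percentile points, a downward difference that 4.10% of the protein-coding genes called in both lists equalled or exceeded. From leptonema/zygonema to diplonema the difference was -40.1 points, which 9.23% of genes equalled or exceeded, beside a median of -3.40 points over all genes called in both. The order of the later substages was not stable, since in lists cut to equal size Dmc1 stood at 17.0 in pachynema and 18.3 in diplonema. Among peaks with a dREG score of at least 0.5 it stood at 18.0 in pachynema and 0.692 in diplonema.

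The peaks at Dmc1 also differed in layout. In leptonema/zygonema a peak of 770 bp covered the main TSS (chr15:79604871-79605640, score 1.106) and a weaker one lay within the first part of the gene (chr15:79604151-79604800, score 0.485). In pachynema the order was the other way round by a small margin, with 0.760 for the peak over the TSS (chr15:79604961-79605450) and 0.768 for the intronic peak (chr15:79604271-79604780), which lay 319 bp from the nearest TSS. A small peak of 140 bp and score 0.391 lay between them. In diplonema only the peak over the TSS was called, 440 bp wide (chr15:79604921-79605360). The sequence before the Dmc1 start printed above holds 2 matches to GGGCGG, both on the opposite strand, and no other letters searched.

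Psmc3ip, which encodes the HOP2 subunit, had a promoter peak of low rank in pachynema and none in diplonema. It is a short gene of 3614 bp on the minus strand of chromosome 11 (101091823 to 101095436). In leptonema/zygonema a peak of 480 bp over the TSS scored 1.008 (chr11:101095221-101095700, percentile 45.2), with a second upstream peak of score 0.305. In pachynema the only promoter peak scored 0.305 (chr11:101095171-101095620), at rank 13130 of 13272 called genes and percentile 1.05. In diplonema no peak lay within 1000 bp of any of its 4 annotated TSSs.

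The difference of -44.2 points between leptonema/zygonema and pachynema was equalled or exceeded downward by 164 of the 12498 protein-coding genes called in both lists (1.31%). Loss of the call was less uncommon: 15.9% of genes called in pachynema were not called in diplonema, and these had a median pachynema percentile of 11.4. Of 2644 genes at percentiles 35 to 55 in leptonema/zygonema, as Psmc3ip was, 244 (9.23%) had no promoter peak in diplonema. No TSS of another gene lay nearer to the Psmc3ip main start than that of Mlx, 5774 bp away, and no other gene started within 1000 bp of these peaks. In lists of equal size, made of the 38603 highest-scoring peaks of each, Psmc3ip was called in leptonema/zygonema but in neither later substage.

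Mnd1 encodes the partner of HOP2, and its course was not that of Psmc3ip. It lies on the minus strand of chromosome 3 (84087933 to 84155786) with 1 annotated TSS. Its TSS peak scored 1.057 in leptonema/zygonema (chr3:84155631-84156240), 1.213 in pachynema (chr3:84155181-84155980) and 0.486 in diplonema (chr3:84155491-84155950). The percentiles were 51.2, 79.8 and 16.7, so Mnd1 was highest in pachynema, where Psmc3ip was at percentile 1.05. Pachynema minus leptonema/zygonema was 28.5 points, a difference equalled or exceeded upward by 5.31% of genes. Diplonema minus pachynema was -63.0 points, a downward difference equalled or exceeded by 74 of 11166 genes called in both lists (0.663%), and the median over those genes was -4.38 points.

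The centre of the Mnd1 peak also lay at different places. It was 149 bp upstream of the start in leptonema/zygonema, 206 bp downstream in pachynema and 66 bp downstream in diplonema. In leptonema/zygonema a second peak of score 0.579 covered part of the downstream stretch (chr3:84155371-84155610) that the single pachynema peak took in. The percentile range of Mnd1, 63.0 points, was the widest of the 8 genes called in all 3 lists. Of 10850 other genes called in all 3 lists, Zfp930 had the most similar 3 percentiles (52.2, 84.3 and 18.1), with no list more than 4.49 points from Mnd1. Net1 and Tubal3, neighbours on opposite strands with equal percentiles in pachynema and diplonema (82.8 and 22.2), followed with a largest difference of 5.46 points.

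Meiob and Spata22, whose products form the single-stranded DNA-binding pair, were high in every list. Meiob lies on the plus strand of chromosome 17 (24804289 to 24839788). Its highest peak scored 1.317 in leptonema/zygonema (chr17:24803951-24804770), 1.276 in pachynema (chr17:24803761-24804540) and 1.382 in diplonema (chr17:24803571-24804910), at percentiles 93.2, 90.8 and 99.9. In diplonema it ranked 8 of 11328 called genes, and its peak ranked 11 of all 38603 peaks.

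That diplonema peak of Meiob was 1340 bp wide, beside a median of 570 bp for peaks over a main TSS in the same list. Leptonema/zygonema and pachynema had 3 neighbouring peaks each across about the same stretch, with scores of 0.512, 1.317 and 0.732 in leptonema/zygonema and of 0.319, 1.276 and 0.996 in pachynema. A single wide call thus stood in diplonema where several narrower calls stood earlier. No TSS of another gene was closer than 24586 bp to the Meiob start.

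Spata22 lies on the plus strand of chromosome 11 (73329741 to 73346044). Its TSS peak scored 1.240 in leptonema/zygonema (chr11:73329321-73330010), 1.244 in pachynema (chr11:73329301-73330110) and 1.163 in diplonema (chr11:73329321-73330000), at percentiles 82.3, 85.8 and 90.9. Thus the percentile was higher in each later list although the diplonema score was the lowest. These values do not belong to Spata22 alone, because the annotated gene Gm49340 starts at the same base and Aspa, which encodes aspartoacylase, starts on the other strand at 73329596. The peaks have no strand, so the signals of these genes cannot be told apart. Intronic promoter peaks downstream of the start, with scores of 0.601 and 0.523, were called in leptonema/zygonema and pachynema but not in diplonema.

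**Figure D2:**
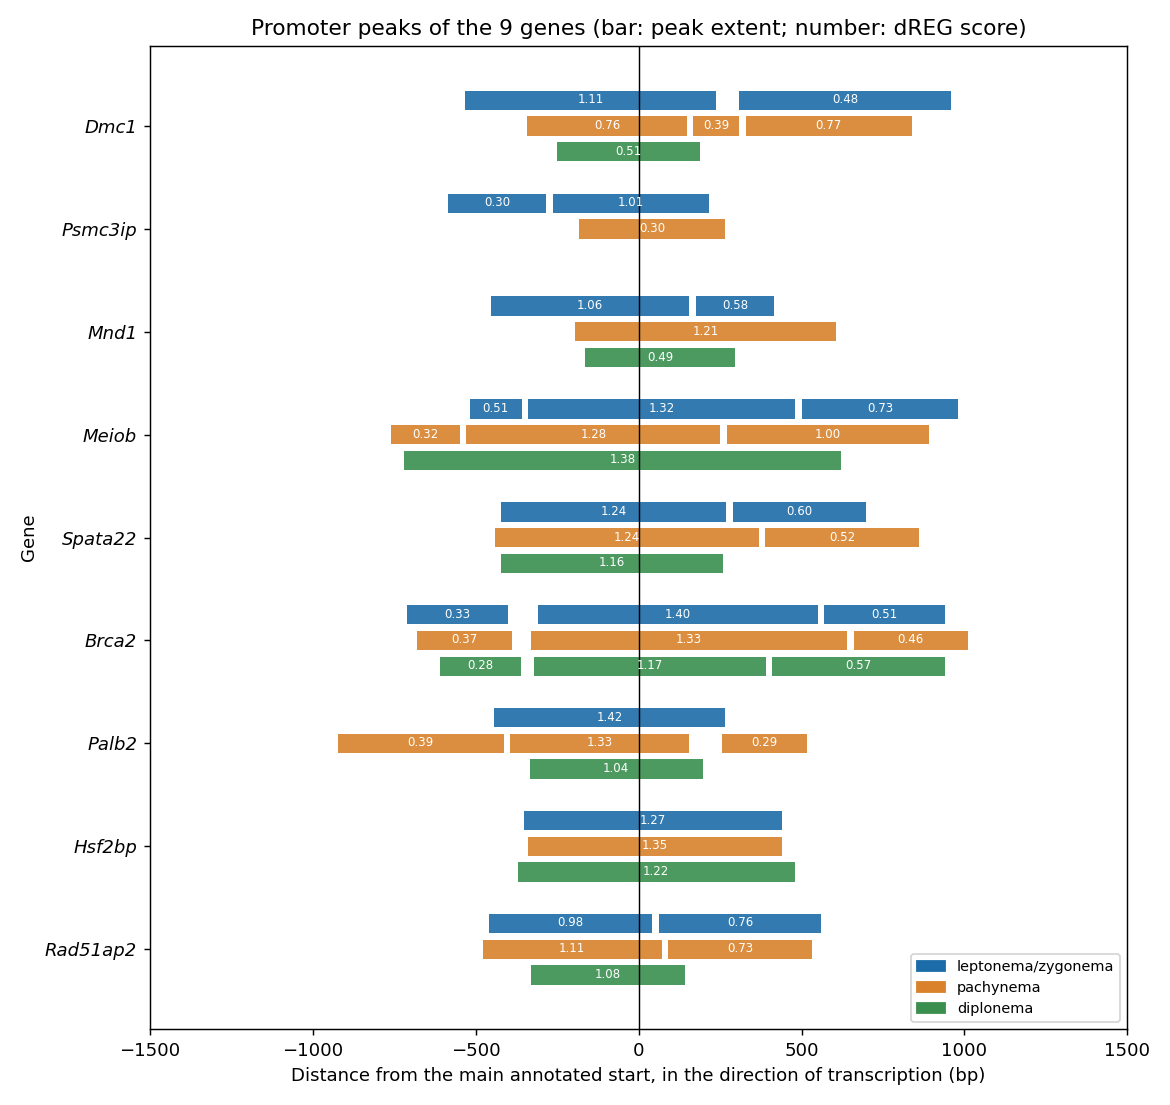
Promoter peaks of the 9 genes as distance in bp from the main annotated start along the direction of transcription (horizontal axis), with 1 row per substage under each gene. Bars span the called peaks and the printed number is the dREG score. Peaks at the internal start of Brca2 and the second start of Hsf2bp lie beyond the 1500 bp shown. The single 1340 bp diplonema peak of Meiob and the missing diplonema peak of Psmc3ip can be seen.

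Brca2 and Palb2, which encode the recombinase loader and the partner that joins it to BRCA1, had the highest percentiles of the 9 genes in leptonema/zygonema. Brca2 lies on the plus strand of chromosome 5 (150522630 to 150570329). Its TSS peak scored 1.403 (chr5:150522321-150523180), 1.331 (chr5:150522301-150523270) and 1.174 (chr5:150522311-150523020) in leptonema/zygonema, pachynema and diplonema, at percentiles 98.8, 96.4 and 92.0. It ranked 153 of 13203 called genes in leptonema/zygonema, and it was flanked in each list by a weaker peak on either side. The nearest TSS of another gene, Zar1l, was 4466 bp away.

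Brca2 had a further initiation site near its 3′ end, at an internal annotated start (150566541). The strongest peak there scored 1.296 in leptonema/zygonema (chr5:150566001-150566860), 1.126 in pachynema (chr5:150566031-150566920) and 0.714 in diplonema (chr5:150566271-150566810). This site lies in an intron, and the antisense gene Gm42529 starts inside it at 150566426 on the minus strand, so it cannot be given to either gene.

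Palb2 lies on the minus strand of chromosome 7 (122107262 to 122132985). Its TSS peak scored 1.417 in leptonema/zygonema (chr7:122132681-122133390), 1.328 in pachynema (chr7:122132791-122133340) and 1.044 in diplonema (chr7:122132751-122133280). The percentiles were 99.2, 96.2 and 76.6, with a rank of 101 among 13203 genes in leptonema/zygonema. The difference from pachynema to diplonema was -19.6 points, and 22.6% of genes had one as large downward. Dctn5, a dynactin subunit gene on the other strand, starts 95 bp from the Palb2 main start inside each of these peaks, and the 2 genes cannot be told apart.

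Hsf2bp, which encodes a BRCA2-binding protein of meiotic cells, had 2 initiation regions with unlike courses. It lies on the minus strand of chromosome 17 (31944769 to 32036349). The peak over its main TSS scored 1.269 in leptonema/zygonema (chr17:32035911-32036700), 1.354 in pachynema (chr17:32035911-32036690) and 1.220 in diplonema (chr17:32035871-32036720), at percentiles 87.0, 98.0 and 95.9. Rrp1b, a ribosomal RNA processing gene, has a TSS 42 bp from this start on the other strand, within the same peak, so the values are those of both genes.

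The second annotated start of Hsf2bp, at 32034508, lay clear of other genes. There the peak over the start scored 0.464 in leptonema/zygonema (chr17:32034371-32034750) and 0.287 in pachynema (chr17:32034271-32034750). A companion peak just downstream scored 0.484 and 0.276, and diplonema had no peak at this start. With peaks near another gene's TSS left out, Hsf2bp stood at percentile 13.1 in leptonema/zygonema and 0.506 in pachynema and was not called in diplonema. Its high rank thus rested on the start it shares with Rrp1b.

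Rad51ap2 stood higher in the diplonema list than in the leptonema/zygonema list. It lies on the plus strand of chromosome 12 (11456079 to 11462928) with 1 annotated TSS. Its TSS peak scored 0.979 in leptonema/zygonema (chr12:11455621-11456120), 1.108 in pachynema (chr12:11455601-11456150) and 1.076 in diplonema (chr12:11455751-11456220), at percentiles 41.8, 60.9 and 80.9. The difference of 39.1 points from leptonema/zygonema to diplonema was equalled or exceeded upward by 428 of 10918 genes called in both (3.92%). With percentiles taken among all peaks of each list it was 14.3 points. A second peak within the transcribed part scored 0.761 and 0.733 in the first 2 substages and was not called in diplonema. The nearest TSS of another gene was 17846 bp away.

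Across the 9 genes the promoter peaks fell into 15 sites once overlapping peaks were joined. Of these, 10 had a peak in all 3 lists, 3 in leptonema/zygonema and pachynema and 2 in leptonema/zygonema alone, beside 53%, 15.6% and 13.2% of the promoter sites of all protein-coding genes. None of the 15 lacked a leptonema/zygonema peak, as 17.4% of all promoter sites did. All 12 diplonema promoter peaks overlapped a peak of each other list, as did 90.8% (leptonema/zygonema) and 95.8% (pachynema) of the diplonema promoter peaks of all protein-coding genes. Of the 22 leptonema/zygonema peaks 15 overlapped a diplonema peak, beside 71.2% over all genes, so the overlaps of these genes were near the background. The diplonema list as a whole was the shortest. In lists of equal size 9, 8 and 8 of the 9 genes were called in leptonema/zygonema, pachynema and diplonema, beside 52.7%, 53.1% and 51.6% of all protein-coding genes.

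Peaks within the genes but outside the promoters were few. There were 9 in leptonema/zygonema, 6 in pachynema, then 2 in diplonema, all intronic and none under 1000 bp from a TSS of another gene. The peaks fell in 3, 2 and 1 of the 9 genes, beside 28.6%, 26.9% and 15.8% of all protein-coding genes with a gene-body peak. In lists of equal size there were 3, 2 and 2 such peaks, in 1 gene of each list, beside 19.1%, 17.2% and 15.8% of all protein-coding genes. The part of list length in these counts was not tested. Per 10 kb of gene the 9 genes held 0.266, 0.177 and 0.0590 peaks, and all protein-coding genes held 0.163, 0.145 and 0.0666. Dmc1, Psmc3ip, Meiob, Spata22, Palb2 and Rad51ap2 had none in any list.

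Hsf2bp carried most of the gene-body peaks, with 5, 4 and 2 in the successive substages. The strongest lay 66.2 kb into the gene (chr17:31969941-31970330) and scored 1.097 in leptonema/zygonema, above 85.7% of all peaks of that list. At the same place the pachynema peak scored 0.731 (percentile 65.2 among all peaks), and diplonema had none. A site 22.7 kb into the gene was the only gene-body site of the 9 genes seen in all 3 lists, with scores of 0.908, 0.559 and 0.393 in leptonema/zygonema, pachynema and diplonema. Mnd1 had 2 intronic peaks in leptonema/zygonema and 2 in pachynema, with scores from 0.278 to 0.418, and Brca2 had 2 in leptonema/zygonema alone, of scores 0.350 and 0.339. Of 12 gene-body sites, 1 was shared by the 3 lists, 3 by leptonema/zygonema and pachynema, and 8 were seen in a single list, beside 20.2%, 23.5% and 51.3% of the gene-body sites of all protein-coding genes.

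**Figure D3:**
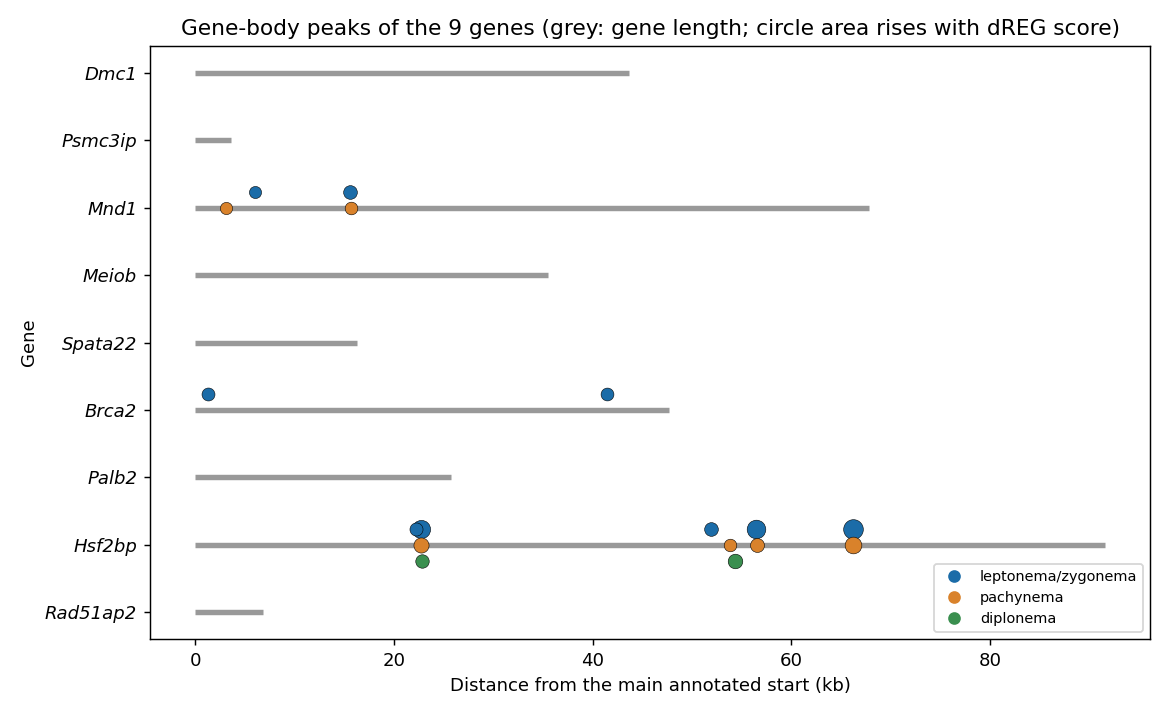
Gene-body peaks of the 9 genes, placed by distance in kb from the main annotated start (horizontal axis). Grey bars show gene length, circles mark peak centres coloured by substage, and circle area rises with the dREG score. Of the 17 peaks, 11 are in Hsf2bp.

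The promoters of 8 of the 9 genes were matched in the RefSeq promoter table, all but Meiob, and were scanned from 250 bp before to 50 bp after the main GENCODE TSS on both strands. Their median GC content was 63.8% beside 55.7% for all protein-coding promoters, and their median CpG count was 24.5 beside 12. All 8 genes had a promoter peak in leptonema/zygonema and pachynema, whereas the reference also held genes without one. Promoters of called genes alone were not compared. GC content was highest in Hsf2bp (71.3%) and lowest in Brca2 (58.3%), among these 8 promoters. Mnd1 had 12 CpG dinucleotides, the fewest of the 8.

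The letters GCNGTT (MYB) were found in Dmc1, Spata22 and Palb2, 3 of 8 beside 35% of all promoters, and the longer GGCAGTT, which contains a form of them, in none beside 4.05%. GCGGGAA (E2F) was found in Spata22, Brca2 and Rad51ap2, 3 of 8 beside 6.05% of all promoters. Brca2 alone held TGACGTNA (CREB, 3.73% of all promoters). The letters TATAAA were also found in Brca2 alone (12.4%), and Hsf2bp alone held GTTGCNA (RFX, 10.4%). CCAAT (NFY) was found in Psmc3ip, Spata22 and Palb2 (38.7% of all promoters), and GGGCGG (SP) in Dmc1, Mnd1, Rad51ap2 and Palb2 (45%). CACGTG (E-box, 7.73%) and GCATGCGC (NRF1, 3.70%) were found in none of the 8. No letters searched were held by all of Dmc1, Psmc3ip and Mnd1 in this window. These matches are a description of letters only, and the shares beside them are over promoters of called and uncalled genes together.

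Of 31 other recombination repair genes 30, 30 and 28 had a promoter peak in leptonema/zygonema, pachynema and diplonema, at median percentiles of 66.4, 79.3 and 76.9. With peaks near a TSS of another gene left out, 15, 15 and 13 of the 31 were called, beside 7, 7 and 5 of the 9 genes and 43.8%, 44.1% and 35.3% of all protein-coding genes. The difference between the repair genes and the 9 was not tested. Rad51d, a recombinase paralogue, was called in no list, and its relative Xrcc3 and the translocase gene Rad54l were called in leptonema/zygonema and pachynema only. Xrcc3 was also the lowest called gene of the list in leptonema/zygonema (percentile 28.9) and pachynema (12.3), and Dna2, a resection nuclease gene, in diplonema (13.0). Highest were Rbbp8, which encodes the resection factor CtIP, in leptonema/zygonema (96.1) and Rad50, of the MRE11 complex, in pachynema (97.5) and diplonema (95.6).

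**Figure D4:**
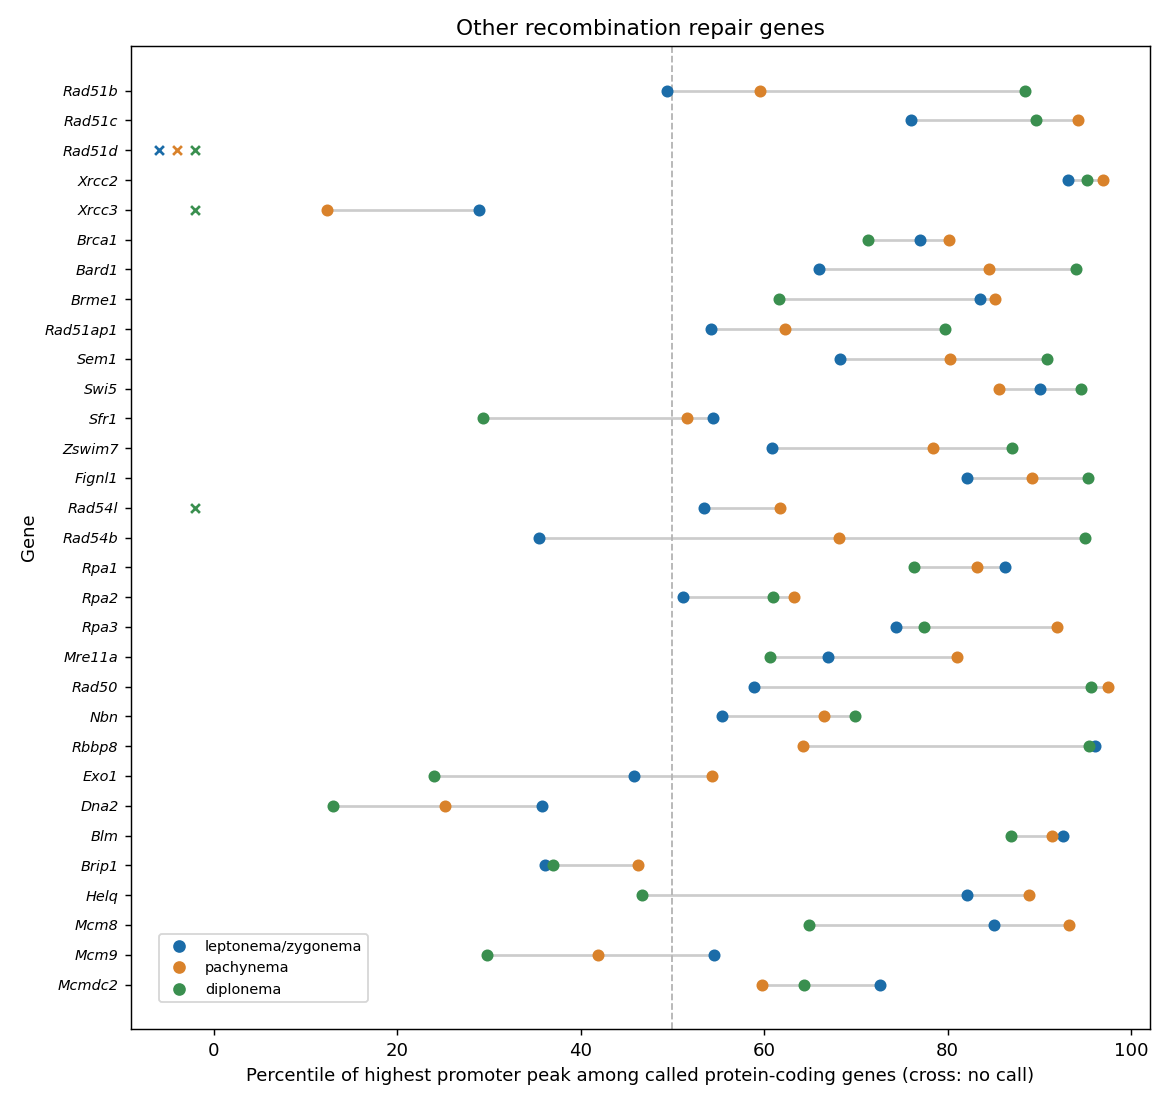
Percentile of the highest-scoring promoter peak (horizontal axis, among called protein-coding genes of the same list) for 31 other recombination repair genes (vertical axis). Each point is 1 substage, a cross is a gene without a call, and the dashed line is the middle gene. Most points lie to the right of it, with Xrcc3, Dna2 and Brip1 to its left in each list where they were called.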

How the data were processed

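The authors used PRINSEQ lite to drop reads with a repeated molecular identifier, then cutadapt to trim and BWA to map to mm10 plus a ribosomal RNA unit, with 1 base kept per read, and bedtools (cutadapt, BWA and bedtools also per the labels). They ran dREG with default settings on the 4 merged libraries of each substage. The dREG version is not given in the sources used here. The deposited score and the deposited p-value (at most 0.05) of each peak are the authors' own values. The sources disagree on single-end or paired-end reads.

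Peaks were joined to GENCODE M21 TSSs at their deposited mm10 positions with Python 3.11.15, numpy 2.4.6 and pandas 2.3.3. Overlaps needed 1 bp. A percentile is the share of values below, with ties split evenly. The TSS-to-peak distance and percentile steps were tested on simulated data, and the joining of overlapping peaks was not. The 9 genes and all lists were chosen with earlier results of these data known. Named were the 9 genes, neighbours under 1000 bp from their promoter peaks, other repair genes without a call or at the ends of each list, and the 3 genes most like the member with the widest range. Alternatives changed the TSS set, distance, score, p-value, list size, ranking and window. The repair list holds 31 genes, and a further gene considered for it is not reported here or counted.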

Additional observations from a re-analysis of the deposited data

How the results depend on the processing

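No paired analysis was possible because each list pools its 4 libraries with no replicate columns, which also means that leaving out single libraries gave no value. Of 741 recomputed values under 15 alternatives, 545 stayed within their limits (1.5 times for counts, the counting interval for percentiles, the same sign for differences), 189 moved and 7 reversed in sign. The counting interval used the number of genes called in leptonema/zygonema for every list. It is a fixed limit and does not measure the spread of a single gene's percentile or of a median. The counts of the 9 genes called moved by over 1.5 times only with peaks near a TSS of another gene left out, to 5 in diplonema. That setting also left 15, 15 and 13 of the 31 other repair genes called in leptonema/zygonema, pachynema and diplonema, and median percentiles of the 9 genes of 58.9, 67.9 and 84.8. Median percentiles in the same order were 80.3, 86.9 and 88.9 with a dREG score of at least 0.5, 94.0, 96.3 and 95.2 among all peaks, and 65.8, 82.7 and 88.0 with the nearest promoter peak. Ties in distance went to the peak of lower coordinate under the nearest-peak setting. For Hsf2bp this was the peak at its second start in leptonema/zygonema and pachynema. Lists of equal size gave 79.8 in leptonema/zygonema and 86.7 in pachynema, and a p-value of at most 0.01 gave 85.2 in diplonema. The last settings were added once the data had been seen. RefSeq TSSs gave 58.4 in leptonema/zygonema and 79.6 in pachynema, and percentiles among genes called in all 3 lists gave 81.6 in leptonema/zygonema and 85.3 in diplonema. Gene-body peaks numbered 3, 2 and 1 with a score of at least 0.5, 3, 2 and 2 with lists of equal size, and 2 in pachynema with a p-value of at most 0.01.

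Reversed differences concerned Hsf2bp and Dmc1. For Hsf2bp, pachynema minus leptonema/zygonema became -13.2 points with the nearest promoter peak, -12.6 with shared peaks left out and -8.63 with RefSeq TSSs, and diplonema minus pachynema became 95.6 and 95.5 points with the nearest peak and with RefSeq TSSs. Its diplonema minus leptonema/zygonema difference, 8.90 points with the highest-scoring peak, became 82.4 and 86.9 under those same settings, above that of Rad51ap2 under each. These settings pass between its shared and its second start. In leptonema/zygonema and pachynema each of these starts lay inside a peak, so neither peak was nearer. The nearest-peak setting then took the peak of lower coordinate, at the second start, so its Hsf2bp values rest on that tie. For Dmc1, diplonema minus pachynema became 1.27 points with lists of equal size and 1.93 among genes called in all 3 lists, so its order between those substages depends on the ranking, while its leptonema/zygonema percentile stayed the highest of the 3. Psmc3ip had no call in pachynema with a score of at least 0.5 or with lists of equal size. Mnd1 had none in diplonema with that score, so the differences of these genes have no value there. With percentiles among all peaks, pachynema minus leptonema/zygonema was -75.3 points for Psmc3ip, -18.1 for Dmc1 and 11.2 for Mnd1. Under that setting diplonema minus leptonema/zygonema was 14.3 points for Rad51ap2. Depth was not compared between the lists, and its part in a missing peak was not tested. With promoters taken from 500 bp before to 100 bp after the start, GCNGTT was found in 6 of 8 genes, CCAAT in 5 and TATAAA in 2, beside 56.5%, 57.8% and 25% of all promoters.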
